A study of Mus musculus with 39 samples.

Results

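Cspg4 (ENSMUSG00000032911) was followed across the libraries of this study as 1 of the 43430 gene rows of the deposited table, found by its symbol. It was chosen by its measured counts, which were at or near 0 in lung monocytes of naive mice and high in macrophages of bleomycin-injured lungs, so the step between those cell types is given below as a description with no test. Cspg4 encodes a large transmembrane core protein, also called NG2, that can carry a chondroitin sulfate chain. It binds collagen VI, platelet-derived growth factor and fibroblast growth factor outside the cell, sits beside integrins, and hands signals to PDZ-domain proteins and protein kinase C inside it. Metalloproteinases shed its extracellular part. In tissues it is best known as a marker of pericytes, smooth muscle cells and oligodendrocyte precursors, and it has also been described on some macrophages.

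RNA from sorted lung cells of C57BL/6J mice was sequenced in 39 libraries. The 20 monocyte libraries came from naive mice, and the 19 macrophage libraries were Siglec F-low alveolar macrophages from mice given bleomycin, which injures the lung and leads to fibrosis. Young and old mice of both kinds were given either saline or the small molecule ISRIB, which blunts the integrated stress response by acting on the translation factor eIF2B. There were 8 groups with 5 libraries apiece, apart from the young ISRIB macrophages with 4. Ages differ between sources: the labels give 8 to 12 weeks and over 18 months, and the series text 3 to 5 and 18 to 24 months. Treatment was daily from day 7, and cells were taken on day 21 after bleomycin. The sources used here give no timing for the naive mice. No source used here says how many mice stand behind a library, so the spread between libraries may be partly technical. Cell type and bleomycin cannot be told apart in this design. Library totals ran from 4595331 to 16056708 counts.

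In GRCm38, Cspg4 spans chr9:56865033-56899870 on the plus strand. GENCODE vM21 annotates 4 transcripts there. One of them, Cspg4-201, codes for protein, has 10 exons and is 8121 bases long, and the others retain introns. No annotated gene overlaps Cspg4, so its reads are not shared with a gene on the other strand. The nearest gene in the table is Odf3l1, on the minus strand, whose start lies 354 bases from the start of Cspg4, so the genes are head to head. The 179 bases just upstream of the annotated start are shown because they lie between these 2 oppositely directed genes. They are read from the RefSeq promoter table (build GRCm38.p6, plus strand, chr9:56864854-56865032). The capitals mark both GC boxes, the site of Sp1, here as CCGCCC.
Cspg4 upstream sequence: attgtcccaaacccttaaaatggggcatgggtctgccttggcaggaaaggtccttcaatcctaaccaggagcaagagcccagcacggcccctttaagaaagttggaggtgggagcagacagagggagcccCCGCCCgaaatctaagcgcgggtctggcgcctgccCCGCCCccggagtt

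The GC boxes start 49 and 14 bases before the annotated start. The RefSeq start lies 71 bases further downstream. In the 300-base RefSeq window around that start, from 250 bases before it to 50 after, GC content was 60%, against a median of 52.7% over 32851 promoters. On both strands of such windows, GGGCGG was found in 35.7% of promoters. The window of Cspg4 held no TATAAA, which 13.6% of promoters held, and no CANNTG, the E-box, which 72.3% held. TGATGNAA, the C/EBP-ATF element bound by ATF4, a factor of the integrated stress response, was in 3.97% of promoters and did not occur in this window. TTNCNNAA, a C/EBP site found in 40.7% of promoters, occurred 1 time. These are matches of letters and say nothing of binding.

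Cspg4 was all but absent from monocytes. It had 0 counts in 16 of 20 monocyte libraries. With 0 counts, a library's depth allows a level of up to 0.249 to 0.653 CPM (counts scaled to 1000000 per library), taken as 3 counts and covering counting error only. The other libraries were young ISRIB replicate 3 with 1 count, old saline replicate 1 with 2, and old ISRIB replicates 1 and 3 with 6 and 3. The highest monocyte level was therefore 0.689 CPM. Siglecf, which the macrophages express, was at 0.23 CPM in that library, and Mcam at 0.459 CPM.

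All 19 macrophage libraries expressed Cspg4, with 272 to 3506 counts. In young saline macrophages it stood at 253, 209.6, 216, 191 and 218 CPM, a mean of 217.5 ± 22.6 (SD, n = 5). Young ISRIB macrophages had 127, 119, 252 and 185 CPM, a mean of 171 ± 61.3 (SD, n = 4). Old saline macrophages had 144, 167, 67.0, 134 and 75.9 CPM, a mean of 118 ± 44.0 (SD, n = 5). Old ISRIB macrophages had 77.1, 72.0, 60.5, 79.7 and 35.1 CPM, a mean of 64.9 ± 18.2 (SD, n = 5). The order of the means was thus young saline, young ISRIB, old saline, old ISRIB. Libraries of neighbouring groups in that order overlapped, so no step of 1 place exceeded the spread. Old saline libraries lay in 2 ranges, with replicates 3 and 5 among the old ISRIB values and the other 3 among the lower young ISRIB values. From the lowest library to the highest, macrophages spanned 7.2-fold.

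**Figure D1:**
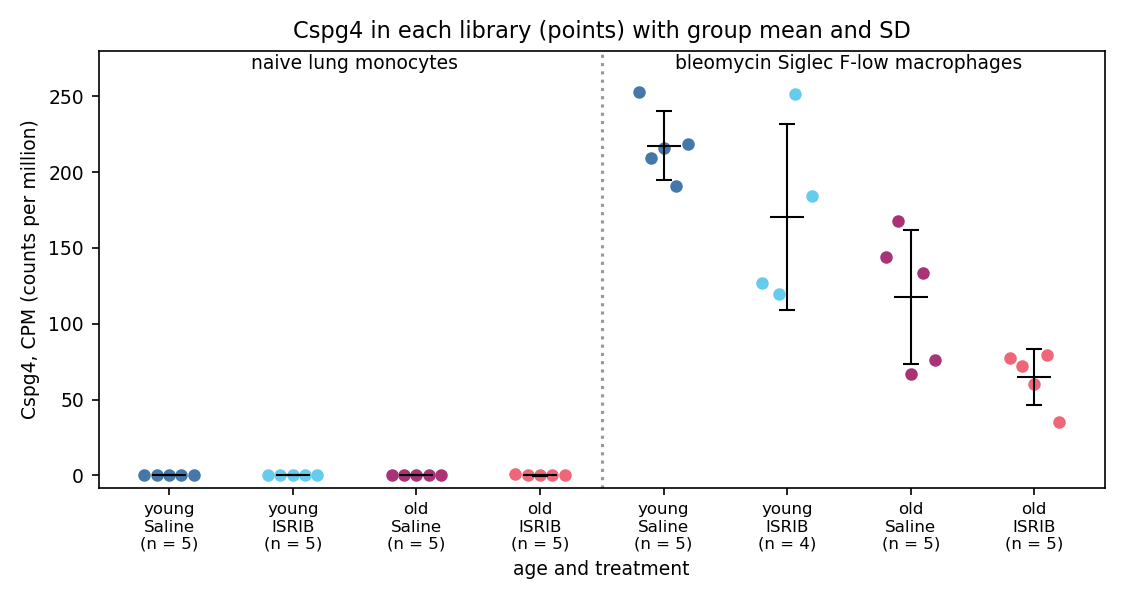
Cspg4 level in CPM (linear axis) in each of the 39 libraries, by age and treatment, for naive lung monocytes (left) and bleomycin Siglec F-low macrophages (right). Points are libraries, the horizontal mark is the group mean and the bar its SD. Monocytes lie on the zero line, and macrophage means run from 217.5 CPM in young saline to 64.9 CPM in old ISRIB mice.

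Set against monocytes of the same age and treatment, the pooled Cspg4 share of counts in young saline mice was at least 2923-fold higher in macrophages, computed against a floor of 3 counts over the monocyte group. The ratio was 6861 in young ISRIB (exact 95% counting interval 1231 to 271000), 2627 in old saline (727 to 21700) and 326 in old ISRIB mice (172 to 714.5). These intervals rest on 1, 2 and 9 monocyte counts and cover counting error only. By the rule that chose the gene these ratios had to be large.

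Per kilobase of exon, Cspg4 was a gene of middle to high level in macrophages. Exon length was the union over all annotated transcripts, 11931 bases for Cspg4, while its coding transcript has 8121. It stood at 18.2 CPM per kb in young saline macrophages, above 79.7% of the 12120 genes ranked. The values were 14.3 CPM per kb in young ISRIB (above 75.3%), 9.86 in old saline (above 66.2%) and 5.44 in old ISRIB macrophages (above 49.95%), where it equalled the median gene at 5.44.

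Among genes so scarce in monocytes, Cspg4 had the highest macrophage level in CPM, which is not scaled by length. Its exons cover 11931 bases, and the order per kilobase was not examined. Of the 1327 genes that averaged 141 CPM or more over macrophages, the mean of Cspg4, it was the only 1 with 12 or fewer monocyte counts. In all, 26142 genes of any macrophage level had that few. Both limits were the values of Cspg4 itself, and the rule chose it for this pattern, so these counts are a description with no test. The next 5 by macrophage level, looked up after values were seen, were H2-M2 (68.1 CPM), Syngr1 (57.2 CPM), Slc36a2 (53.4 CPM), Prom1 (32.3 CPM) and Vash1 (26.3 CPM). H2-M2 encodes a nonclassical class I molecule, Syngr1 a vesicle membrane protein, Slc36a2 an amino acid transporter, Prom1 the membrane protein prominin and Vash1 a secreted tubulin carboxypeptidase. Vash1 also was lower in old macrophages, by a log2 difference of -0.63 ± 0.14 (SE; edgeR adjusted p = 0.00741), a call lost when all 39 libraries were fitted (adjusted p = 0.086). The others were not called for age by edgeR.

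Cspg4 was lower in macrophages of old mice. Averaged over saline and ISRIB, the log2 difference of old against young was -1.12 ± 0.17 (SE), 2.17-fold lower with a 95% interval of 1.71 to 2.75 (edgeR adjusted p = 1.98e-04 over 12171 genes). In this contrast 4.86% of genes were called, and 1.74% were called lower in old mice. Under ISRIB the difference was -1.39 ± 0.24 (SE), 2.63-fold lower with an interval of 1.86 to 3.71 (edgeR adjusted p = 0.00378), in a contrast with 0.937% of genes called and 0.493% called lower. Both calls held in every alternative fit and without any 1 library. The lowest young ISRIB library, at 119 CPM, lay above the highest old ISRIB library, at 79.7 CPM. In bulk RNA, fewer cells that express a gene and less of its RNA per cell cannot be told apart.

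Under saline the age difference was -0.84 ± 0.23 (SE), 1.79-fold lower with a 95% interval of 1.3 to 2.47, and it missed the threshold (edgeR adjusted p = 0.0651), in a contrast with 1.16% of genes called. The 2 groups did not overlap: the lowest young saline library was at 191 CPM and the highest old saline library at 167 CPM. Such a separation toward lower values in old mice held for 1.93% of the genes under saline and 2.05% under ISRIB. The exact permutation test of the log2 level of Cspg4 alone, two-sided, gave p = 0.00794 for age under saline and the same under ISRIB, the smallest p that these group sizes allow (adjusted p = 0.0159 over 4 comparisons). The edgeR adjusted p under saline rested on single libraries. It was 0.0213 without old saline replicate 2, 0.037 without young ISRIB replicate 3 and 0.0481 without old ISRIB replicate 5. Without old saline replicate 5 it was 0.207.

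ISRIB gave lower means of Cspg4 at both ages, but no ISRIB contrast passed the threshold. In old macrophages the log2 difference of ISRIB against saline was -0.89 ± 0.23 (SE), a 95% interval of -1.36 to -0.41 (edgeR adjusted p = 0.216). In young macrophages it was -0.33 ± 0.24 (SE), an interval of -0.83 to 0.16 (edgeR adjusted p = 0.593). In each of these 2 contrasts edgeR called 0% of genes: 0 genes in old mice (1112 at an unadjusted p under 0.05, 0 by limma voom, 49 by DESeq2) and 0 genes in young mice (1513, 0 and 119). The exact permutation test gave p = 0.0635 in old and p = 0.175 in young macrophages (adjusted p = 0.0847 and 0.175), and the groups overlapped at both ages. Old saline replicate 3, at 67.0 CPM, decided the value in old mice: without it the edgeR adjusted p was 0.0441 and the exact permutation adjusted p 0.0212. Without young ISRIB replicate 3, at 252 CPM, the exact permutation adjusted p in young mice was 0.0476, while edgeR made no call.

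Averaged over ages, the ISRIB difference was -0.61 ± 0.17 (SE), 1.52-fold lower with a 95% interval of 1.2 to 1.93 (edgeR adjusted p = 0.0669), where 0.83% of genes were called. This value crossed the threshold without old saline replicate 3 (adjusted p = 0.0181), old saline replicate 5 (0.0229) or young ISRIB replicate 3 (0.0123), and was 0.172 without young ISRIB replicate 1. Whether ISRIB acted differently by age was tested as the old effect minus the young effect, which was not called, at -0.55 ± 0.33 (SE), an interval of -1.23 to 0.13 (edgeR adjusted p = 0.959). That contrast also had 0% of genes called: 0 genes by edgeR, limma voom and DESeq2 and 621 at an unadjusted p under 0.05. The interval includes no difference and a difference as large as the age effect.

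**Figure D2:**
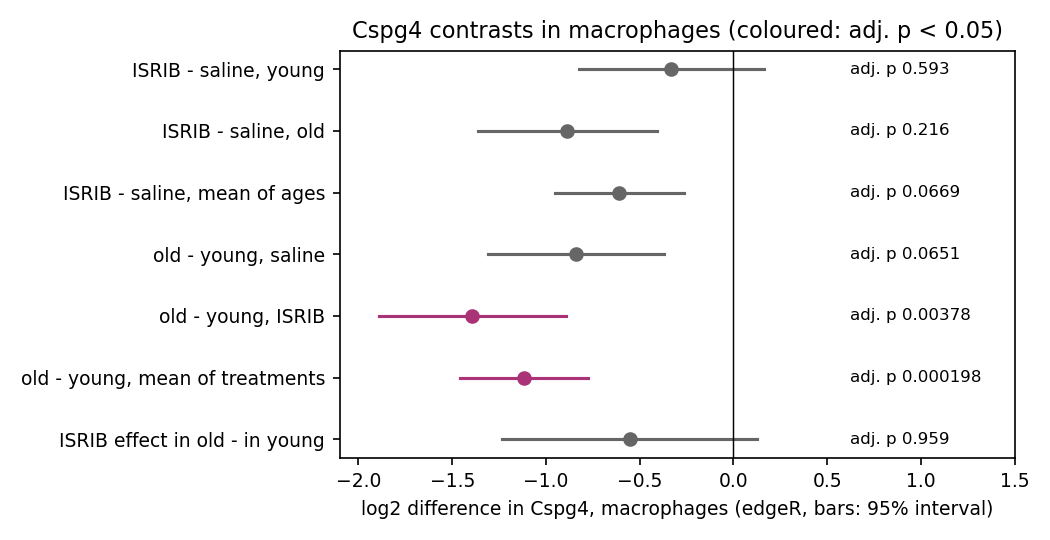
Log2 differences of Cspg4 between macrophage groups from the edgeR fit of 19 libraries. Points are estimates, bars their 95% intervals, and colour marks an adjusted p under 0.05. Every estimate is below 0, and the age contrasts under ISRIB (-1.39) and averaged over treatments (-1.12) pass the threshold.

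Markers of mural cells, pericytes and smooth muscle, were read beside Cspg4, which these cells are known to express. Of 16 mural marker genes, 4 passed the low-count filter. Within a group, 6 of 16 were at 0 in every library of young saline macrophages, 11 in young ISRIB, 2 in old saline and 4 in old ISRIB macrophages. Higd1b was at 0 in every macrophage library. Rgs5, Kcnj8, Abcc9, Myh11 and Ndufa4l2 were at 0 in every young macrophage library but not in every old one. Pdgfrb, the growth factor receptor of pericytes, averaged 0.316 CPM in macrophages and 2.42 CPM in monocytes. The summed level of the list was 26.4 to 48.1 CPM in young saline, 34.5 to 98.4 in young ISRIB, 35.04 to 99.96 in old saline and 68.2 to 125 in old ISRIB macrophages. Most of it was Mcam, an adhesion molecule at a mean of 57.9 CPM that myeloid cells can also express. Mcam was higher in old macrophages by 0.80 ± 0.22 on the log2 scale (SE; edgeR adjusted p = 0.0338). Its call was kept in 8 of 19 fits without 1 library and lost with limma voom, a replicate block and all 39 libraries. The 10 fibroblast markers summed to 3.62 to 27.7 CPM in young saline (mean 9.61), 2.22 to 13.2 in young ISRIB (mean 6.83), 2.12 to 8.79 in old saline (mean 5.88) and 1.03 to 8.59 in old ISRIB macrophages (mean 3.70), the same order of means as Cspg4. Of the 5 that passed the filter, 4 had lower estimates in old macrophages, with a median log2 difference of -0.92, and none passed the edgeR threshold. In monocytes, where Cspg4 was at or near 0, group means of this sum ran from 144 CPM (young ISRIB) to 175 CPM (old saline). Between cell types, 4 of the 5 tested members were called higher in macrophages and 1 lower, beside 39.9% and 39.2% of all genes. Lum, a fibroblast proteoglycan, was at 0 in every macrophage library. The part of mural or fibroblast RNA in the Cspg4 result was not tested.

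Other features of the macrophages also differed by age or treatment. The 5 B cell markers were all called higher in old mice, where 3.12% of all genes were, and their sum was 5.04 to 28.8 CPM in young saline, 6.37 to 20.8 in young ISRIB, 20.1 to 389 in old saline and 138 to 552 in old ISRIB macrophages. All 3 tested T and NK cell markers and all 4 neutrophil markers also had higher estimates in old mice. Of these, Trbc2 was called, at 2.51 ± 0.63 (SE; edgeR adjusted p = 0.0184), and Cxcr2, at 1.75 ± 0.45 (SE; adjusted p = 0.0237). The Cxcr2 call was kept in 16 of 19 fits without 1 library and lost with limma voom and all 39 libraries. No endothelial or epithelial marker was called for age. Siglecf, the lectin of resident alveolar macrophages that the sort used, averaged 51.4 ± 4.49 CPM in young saline macrophages (SD, n = 5), 72.4 ± 9.497 in young ISRIB ones (SD, n = 4), 81.9 ± 29.9 in old saline ones (SD, n = 5) and 125.6 ± 21.0 in old ISRIB ones (SD, n = 5), with a log2 age difference over both treatments of 0.75 ± 0.12 (SE; edgeR adjusted p = 4.78e-04). Siglecf was also higher under ISRIB averaged over ages, by 0.57 ± 0.12 (SE; edgeR adjusted p = 0.0329), a call kept in 10 of 19 fits without 1 library and lost in the fit of all 39 libraries (adjusted p = 0.164). Marco, a scavenger receptor of mature alveolar macrophages, was higher in old mice by 2.25 ± 0.33 (SE; edgeR adjusted p = 1.96e-04). Ccr2, the chemokine receptor of recruited monocytes, was lower, with a log2 difference of -1.27 ± 0.19 (SE; edgeR adjusted p = 2.32e-04). Among general macrophage genes, C1qa and C1qb, which encode complement C1q chains, were lower in old mice, with log2 differences of -0.52 ± 0.13 and -0.51 ± 0.13 (SE; edgeR adjusted p = 0.0154 and 0.0274). C1qb kept its call in 11 of 19 fits without 1 library, and both calls were lost in the fit of all 39 libraries (adjusted p up to 0.350). Itgax and Mertk were not called for age (adjusted p = 0.241 and 0.315). The part of these shifts in the Cspg4 result was not tested.

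Library by library, Cspg4 tracked a small set of genes. Over the 19 macrophage libraries and the 9611 genes that averaged 5 CPM or more, the highest Spearman rho with Cspg4, on TMM-scaled log2 CPM, was that of Cux1, a homeodomain transcription factor, at 0.956. Olfm1, a secreted olfactomedin, followed at 0.937, S100a4, a calcium-binding protein, at 0.932, Apcdd1, an inhibitor of Wnt signalling, at 0.932, and Emilin2, an extracellular matrix glycoprotein, at 0.921. In all, 102 genes were above 0.8 and 129 below -0.8, and the median gene was at -0.002. These libraries share age, treatment and sort, so the values are a description. After group means were subtracted, the closest were Csrp1, a LIM protein, at 0.930, Cux1 at 0.928, Ms4a6c, a membrane protein of myeloid cells, at 0.914, Ace, angiotensin-converting enzyme, at 0.902, and Smim5, a small membrane protein, at 0.895. Cux1 was thus in both sets.

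Young saline macrophages had Cux1 at a mean of 237 ± 10.1 CPM (SD, n = 5) and young ISRIB macrophages at 212 ± 28.3 CPM (SD, n = 4). Old saline macrophages had it at 173 ± 26.8 CPM (SD, n = 5) and old ISRIB macrophages at 128 ± 20.2 CPM (SD, n = 5). Cux1 and S100a4 were picked by rho over these same libraries, so their course in the uneven old saline ones is a description. On the log2 scale, replicates 3 and 5, low in Cspg4, had Cux1 at 7.10 and 7.22 against 7.58 to 7.65 in the others. S100a4 was at 6.19 and 6.05 in those libraries against 6.95 to 7.42, and Siglecf at 6.87 and 6.68 against 5.76 to 6.38, so Siglecf went the other way. The rho of Cspg4 with Siglecf was -0.879, and -0.740 within groups. With Ccr2 it was 0.84, and 0.633 within groups.

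**Figure D3:**
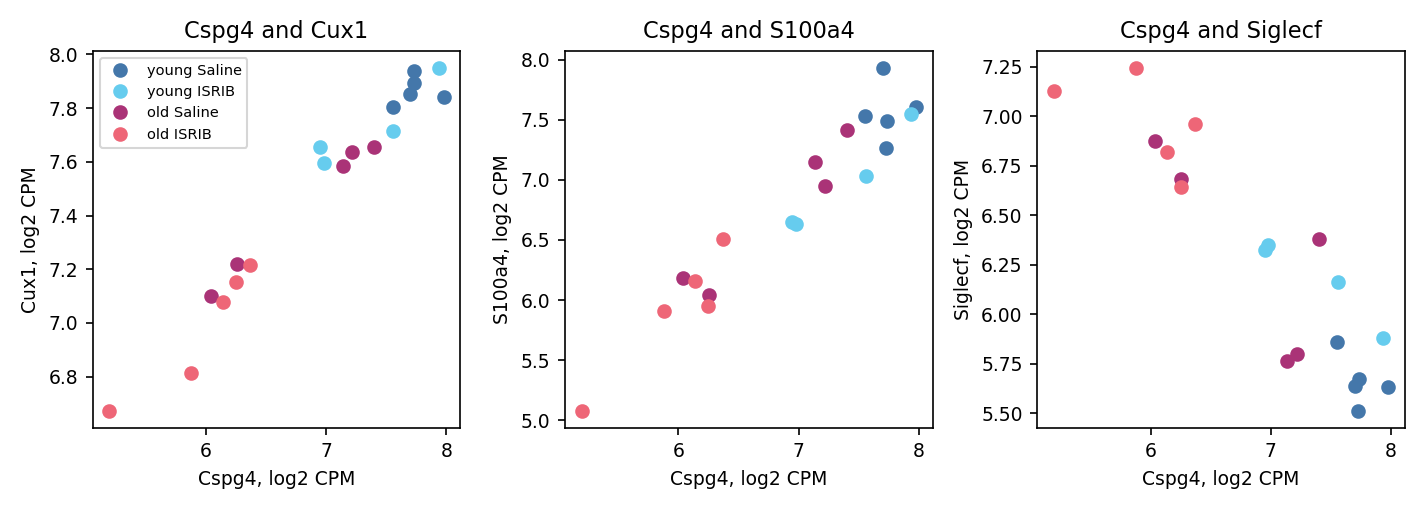
Log2 CPM of Cux1, S100a4 and Siglecf against log2 CPM of Cspg4 in the 19 macrophage libraries, coloured by age and treatment. Each point is a library. Cux1 (rho 0.956) and S100a4 (rho 0.932) increase with Cspg4 and Siglecf (rho -0.879) decreases.

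These like genes were not scarce in monocytes. In young saline monocytes Emilin2 averaged 1327 CPM, Ace 774 CPM, S100a4 590 CPM and Cux1 150.2 CPM, and even Apcdd1 reached 3.76 CPM. Having been picked for their likeness to Cspg4 over young and old libraries alike, the 5 most like had to share its age difference, which is given with no test: the log2 difference of old against young ran from -0.56 (Emilin2) to -1.33 (Apcdd1), with Cux1 at -0.57, Olfm1 at -0.79 and S100a4 at -0.88. Group means were removed before the other set was picked, and its log2 age differences were -0.89 for Ace, -0.54 for Smim5, -0.49 for Ms4a6c and -0.18 for Csrp1. The genes of most opposite pattern, looked up after values were seen, were Tecpr1, an autophagy protein, at -0.946, Ccnd2, a cyclin, at -0.937, Adgre5, the adhesion receptor CD97, at -0.937, P2ry2, a nucleotide receptor, at -0.937, and Phf1, a chromatin protein, at -0.933.

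In macrophages the neighbours of Cspg4 on chromosome 9 were far lower in CPM, which is not scaled by length. Odf3l1, named for outer dense fibres of sperm tails, had 91 counts over all macrophage libraries, with 8 of 19 libraries at 0 and a highest level of 4.13 CPM, and 0 counts in monocytes. Snx33, a sorting nexin on the other side, averaged 10.4 ± 2.80 CPM in young ISRIB (SD, n = 4) and 13.8 ± 2.79 CPM in old ISRIB macrophages (SD, n = 5), with no call for age (edgeR adjusted p = 0.188). In monocytes the order was reversed, with 1512 counts of Snx33 over all libraries and 12 of Cspg4. The paralog of Cspg4, BC067074, named Cspg4b by RefSeq, averaged 0.087 CPM over macrophages and was at 0 in 16 of 19 libraries.

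Of the known ligands, partners and proteases of the Cspg4 protein, 3 were called for age. Of 22 genes, 13 passed the low-count filter, and for the age effect averaged over treatments 1 was called higher and 2 lower, against 3.12% and 1.74% of all genes. The median log2 difference of the list was -0.04, against 0.0045 over all genes tested. Adam10, a sheddase, was lower, with a log2 difference of -0.33 ± 0.08 (SE; edgeR adjusted p = 0.0227), and Itga4, the integrin alpha 4 chain, with a log2 difference of -0.26 ± 0.07 (SE; adjusted p = 0.0413). Mmp9, a gelatinase at a mean of 5.51 CPM, was higher by 2.41 ± 0.61 (SE; adjusted p = 0.0191). Itga4 kept its call in 5 of 19 fits without 1 library. Adam10 lost it without young saline replicate 4 or young ISRIB replicate 4 (adjusted p up to 0.0601). Mmp9 lost it without old saline replicate 3 (0.0551), with limma voom and with the replicate block. All 3 calls were lost in the fit of all 39 libraries (adjusted p up to 0.288). Pdgfa, a growth factor ligand, was at 27.9 CPM (age -0.02 ± 0.15, SE) and Mmp14, a membrane-bound protease that cuts Cspg4, at 299 CPM (age -0.14 ± 0.22, SE). Neither was called. The collagen VI genes Col6a1, Col6a2 and Col6a3 averaged 0.375, 0.176 and 0.745 CPM and Fgf2 0.338 CPM, so these ligands were nearly absent from the macrophages. No gene of the list was called for ISRIB.

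Between cell types, where 79.2% of 13587 genes were called, 10 of the 14 tested members of this list were higher in macrophages and 3 lower, against 39.9% and 39.2% of all genes. Mmp14 was higher by 6.35 ± 0.25 and Pdgfa by 5.34 ± 0.20 on the log2 scale (SE; edgeR adjusted p = 2.2e-24 and 2.73e-25). Sdcbp, the PDZ protein syntenin, was higher by 1.09 ± 0.07 (SE; adjusted p = 8.13e-18) and Prkca, a protein kinase C, by 2.78 ± 0.21 (SE; adjusted p = 1.44e-15). Itga4 was lower, with a log2 difference of -2.38 ± 0.09 (SE; adjusted p = 7.42e-26).

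Most enzymes that build chondroitin sulfate were expressed in macrophages. Of 28 genes 25 passed the filter, and for age averaged over treatments 1 was called higher and 1 lower, beside 3.12% and 1.74% of all genes tested. The median log2 difference of the list was -0.06. Xylt1, a xylosyltransferase that starts the chain, was lower in old macrophages, with a log2 difference of -0.49 ± 0.13 (SE; edgeR adjusted p = 0.0242), and Chst15, a sulfotransferase, was higher by 1.68 ± 0.42 (SE; adjusted p = 0.0191). Xylt1 lost its call without young ISRIB replicate 2 or old ISRIB replicate 5 (adjusted p up to 0.0523) and Chst15 without old saline replicate 5 (0.0543) and with limma voom (0.0735). None was called for ISRIB. Against monocytes, 15 of 26 tested were higher and 7 lower, beside 39.9% and 39.2% of all genes. Chpf, a chain-polymerising factor, was higher by 4.29 ± 0.22 and Chst11, a sulfotransferase, by 3.29 ± 0.23 (SE; edgeR adjusted p = 7.64e-21 and 2.23e-16). Csgalnact2, which adds the first N-acetylgalactosamine, was lower, with a log2 difference of -2.79 ± 0.07 (SE; adjusted p = 2.81e-30).

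Among 20 other genes for chondroitin sulfate core proteins, 19 were matched and 11 passed the filter, and for age 1 was called higher and 1 lower, again beside 3.12% and 1.74% of all genes. The median log2 difference was 0.04. Vcan, the secreted proteoglycan versican, was lower in old macrophages, with a log2 difference of -1.58 ± 0.45 (SE; edgeR adjusted p = 0.0404). Its call was kept in 8 of 19 fits without 1 library. It was lost in DESeq2, limma voom, the replicate block and the fit of all 39 libraries. Thbd, thrombomodulin, was higher by 0.61 ± 0.16 (SE; adjusted p = 0.0289). That call was kept in 10 of 19 and lost with limma voom, the replicate block and all 39 libraries. Cd74, the invariant chain, was lower under ISRIB averaged over ages, with a log2 difference of -0.70 ± 0.12 (SE; adjusted p = 0.0092) and kept that call without any 1 library, but not in the fit of all 39 libraries (0.138). Against monocytes 8 of 12 tested were higher and 4 lower, beside the same 39.9% and 39.2%. Vcan went opposite to Cspg4: it averaged 10.3 CPM in macrophages and 608.5 CPM in monocytes, a log2 difference of -6.06 ± 0.39 (SE; edgeR adjusted p = 1.43e-17). The nervous system proteoglycans Bcan, Ncan, Cspg5 and Ptprz1 averaged at most 0.107 CPM in macrophages.

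**Figure D4:**
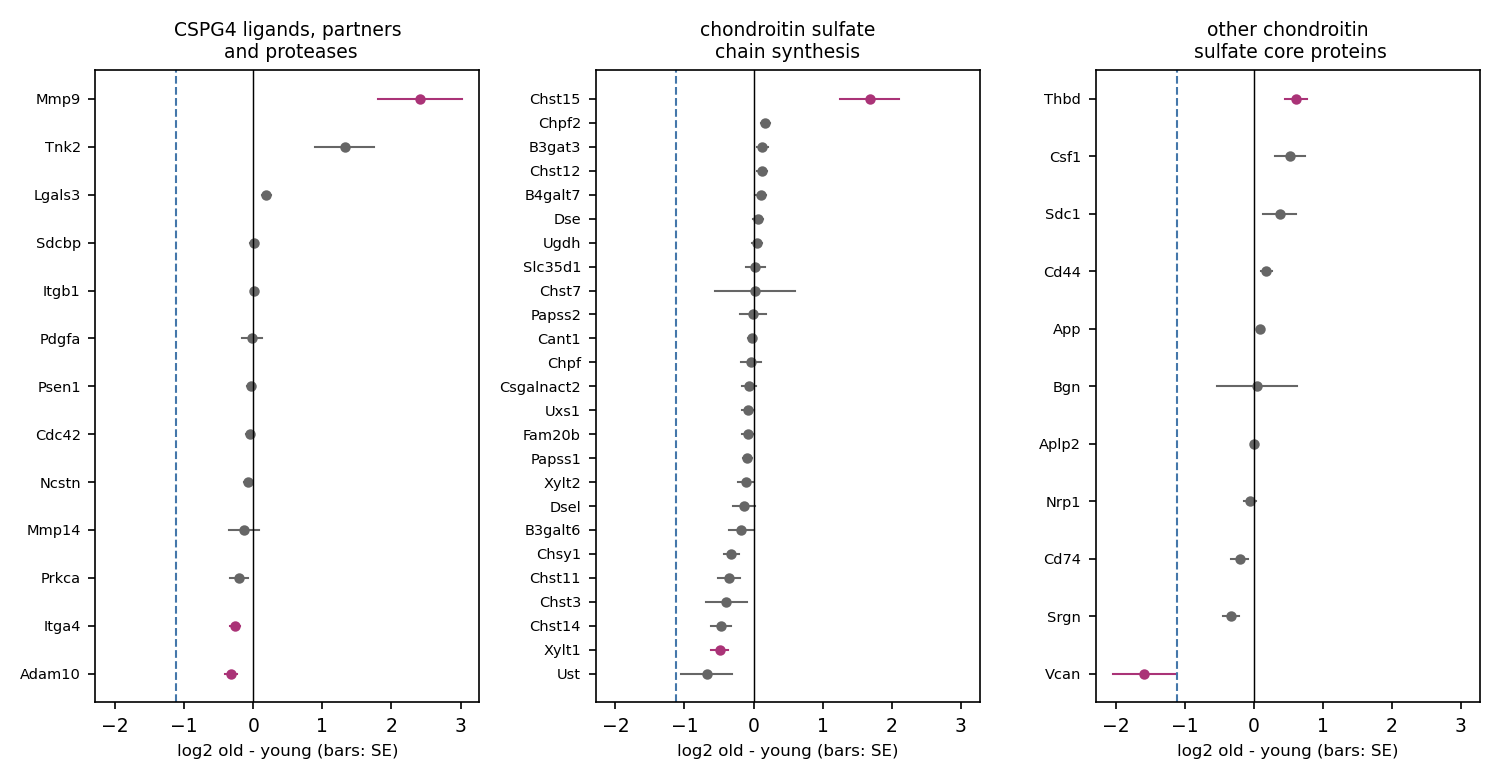
Log2 difference of old against young macrophages, averaged over saline and ISRIB, for the tested members of 3 gene lists around Cspg4. Points are edgeR estimates, bars their SE, colour marks an adjusted p under 0.05, the solid line is 0 and the dashed line is Cspg4 at -1.12. Of these genes Vcan (-1.58) alone has an estimate below that of Cspg4.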

How the data were processed

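PolyA-selected RNA of sorted lung cells was sequenced, per the labels' protocols. The authors deposited unscaled counts of reads for each Ensembl gene, 1 column per library. The submitters' processing notes list mm10, bcl2fastq 2.19.1, FastQC, Trimmomatic 0.36, STAR 2.6.0 and HTSeq 0.11.2 with no roles. The sources used here give neither the annotation nor the strand setting. Symbols came from GENCODE vM21 (42546 of 43430 IDs, 98.0%), and unmatched IDs held at most 0.133% of a library's counts. CPM are counts divided by the library total and multiplied by 1000000.

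The 19 macrophage libraries were fitted with edgeR 4.0.16 in R 4.3.3 (quasi-likelihood test, 1 mean per group, TMM, filterByExpr with minimum counts of 10 and 15 in total), with Benjamini-Hochberg adjustment over all genes tested and a threshold of 0.05. Contrasts with monocytes used all 39 libraries, averaged over age and treatment. Fits were tested on simulated data. Exact permutation tests ran on log2 CPM (prior count 2, Python 3.11.15). Alternatives were DESeq2 1.42.0, limma 3.58.1 voom, RLE or no scaling factors, no filter, other sets of libraries, a replicate block and each library left out.

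The gene and its lists were chosen with earlier results of these data known. Named by rule were Cspg4, the 5 genes of highest rho over libraries and the 5 within groups, neighbours, the paralog, sorting genes, and list members by level (up to 6) or call (up to 5). Opposite genes, the next genes scarce in monocytes, and list members of low level were added after values were seen. Within groups, 76 pairs of libraries differed by more than sampling noise (chi-square per degree of freedom 7.04 to 52.8).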

Additional observations from a re-analysis of the deposited data

Results flagged for a closer look

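Of 55 groups of 4 or 5 libraries examined over 13 named genes, 4 held a library far from the others by Dixon's 95% limit, where chance gives about 1 in 20. Cspg4 stood out in young ISRIB monocyte replicate 3 at 0.109 CPM and in old saline monocyte replicate 1 at 0.232 CPM, because every other library of those groups was at 0. These are 1 and 2 counts. Emilin2 was at 350.0 CPM in young ISRIB macrophage replicate 3, against 217 to 231 CPM in the others of its group, in the library with the highest Cspg4 of that group. Smim5 was at 8.01 CPM in old ISRIB macrophage replicate 5, against 12.5 to 14.3 CPM, in the library with the lowest Cspg4 of all macrophages.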

How the results depend on the processing

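The age effect on Cspg4 averaged over treatments (-1.20 to -1.004 without 1 library) and under ISRIB (-1.52 to -1.17) kept its call in every fit run. Age under saline (-0.84, not called) passed with library totals (-0.89), the 2 groups alone (-0.84), limma voom (-0.95), no low-count filter (-0.84) and the replicate block (-0.89), and ran from -0.996 to -0.69 without 1 library. ISRIB averaged over ages passed without the filter (-0.62) and with the block (-0.67), and ran from -0.72 to -0.53 without 1 library. ISRIB in old mice passed without the filter (-0.89) and ran from -1.04 to -0.73. ISRIB in young mice (-0.56 to -0.21) and the difference between ages (-0.71 to -0.33) were never called. The cause of these shifts was not tested. The exact permutation differences without 1 library were -1.53 to -1.20 for age under ISRIB, -1.08 to -0.74 for age under saline, -1.04 to -0.65 for ISRIB in old and -0.58 to -0.25 in young mice. Age under ISRIB lost its adjusted p (0.0571) without any 1 old ISRIB library, where fewer libraries raise the smallest p possible.

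Replicate numbers showed no clear pairing of the libraries. Over 27 same-numbered pairs the correlation of deviations was -0.148 to 0.165 (median 0.004), with 2 pairs over 0.1. Pairs of other numbers had -0.224 to 0.224 (median 0.001). Of the 19 libraries, 7 correlated best with their own number. Whether libraries of the same number share structure was not tested further. The block moved the genes called for ISRIB averaged over ages from 101 to 343, for ISRIB in young mice from 0 to 10 and for the difference between ages from 0 to 1.

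Counts of called genes changed by over 1.5 times elsewhere. DESeq2 gave 264 for age under saline (141 in edgeR), 219 under ISRIB (114), 434 for ISRIB averaged over ages, 49 in old and 119 in young mice. Without the filter these were 468, 405, 640, 220 and 224, with 975 for age averaged over treatments (592) and 33 for the difference. The fit of 39 libraries gave 60, 50, 17 and 1 for the first 4, and 340 for age averaged. Limma voom gave 169 for ISRIB averaged, and the 2 groups alone 1 for ISRIB in young mice. In fits without 1 library the counts ran from 47 to 289 for age under saline, 33 to 161 under ISRIB, 13 to 649 for ISRIB averaged, 0 to 30 in old and 0 to 304 in young mice.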
